A study of Mus musculus with 22 samples.

Results

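Fgf23, the gene of a phosphate-lowering hormone, and the genes of the 3 enzymes that act on its protein, Galnt3, Fam20c and Furin, were followed in fibroblasts sorted from expanded mouse skin. They are 4 of the 55414 genes in the count table, matched by Ensembl identifier to their mouse symbols, and 3 of the 4 had enough counts to be among the 17554 genes tested. Fgf23 was chosen on its measured levels in these libraries, which were higher with expansion on each day, so its differences are given as descriptions with no test. The enzymes were chosen for their known roles. Every mouse had back-skin surgery in which a tunnel was opened under the skin. The EXP mice received a hydrogel that expands under the skin, and the CTRL mice received none. Skin was taken 1, 2 or 4 days later, and live cells were sorted as negative for CD31, CD45, CD117 and EpCAM and positive for CD34 and PDGFRα. CTRL comprised 4, 3 and 4 libraries on days 1, 2 and 4, and EXP comprised 5, 3 and 3.

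FGF23 is a hormone made mainly by osteocytes and osteoblasts in bone. In the kidney it acts through FGF receptors bound to the co-receptor Klotho, lowers phosphate reabsorption and lowers the active form of vitamin D. The hormone is active while intact. Furin, a protease of the secretory pathway, can cut it at an arginine-rich site. GALNT3 attaches an O-linked sugar to a threonine within that site and protects it from cutting, while the kinase FAM20C phosphorylates a serine just after it, which hinders the sugar and favours cutting.

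The coding stretch of that site is shown because all 3 enzymes act on it. It lies on chromosome 6 (chr6:127080224-127080283, plus strand, GRCm38), in exon 3 of 3 of transcript ENSMUST00000000186, in the GENCODE M21 annotation. The counts were made on another build, mm39, and no coordinate was moved between builds. The capitals mark codons 176 to 179, the cut site, with the threonine at codon 178. The serine comes next, at codon 180, of 251 coded residues.
Fgf23 cut site: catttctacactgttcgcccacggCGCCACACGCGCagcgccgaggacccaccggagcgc

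Library totals ran from 21461294 to 30210204 counts. Levels are given as CPM, read counts divided by the TMM-adjusted size of their library. A count of 3, taken as the limit of detection, was 0.0805 to 0.157 CPM depending on the library, and this limit covers counting error only. A set of 192 genes, chosen because they moved together once group means were removed, split the libraries by their mean level. The sides were partly tied to the groups, since day 2 CTRL, day 2 EXP and day 4 EXP held low-side libraries only. Day 1 CTRL replicates 1 to 3, day 1 EXP replicates 1 and 2 and day 4 CTRL replicates 3 and 4 were on the high side of this split, with the remaining libraries on the low side. Of the 8 fibroblast markers, all 8 were detected in each group. Their summed level was 210600 to 408400 CPM in CTRL libraries and 68100 to 280200 CPM in EXP libraries. Most of this sum came from the collagen genes Col1a1, Col1a2 and Col3a1. Pdgfra was called higher in EXP on each day (log2 fold changes 0.84, 1.71 and 0.79, edgeR adjusted p 0.0154, 0.00134 and 0.0456). Cd34 was called lower on days 1 and 2 (-1.74 and -2.07, adjusted p 8.10e-04 and 0.00379), and not on day 4 (-0.93, adjusted p 0.0948). Thy1 was not called on any day. Without TMM scaling the median log2 fold change of all tested genes shifted up by 0.19, 0.47 and 0.33 on days 1, 2 and 4. The share of calls that were higher in EXP then went from 48.7% to 66.2% on day 1, from 57.5% to 90.5% on day 2 and from 57.0% to 80.8% on day 4. The labels list the replicates as separate samples, and p-values measure the spread between them.

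Fgf23 (ENSMUSG00000000182) was higher in every EXP library than in any CTRL library of the same day. On day 1 it was at 11.2, 1.40, 2.15 and 4.91 CPM in CTRL replicates 1 to 4. The EXP replicates 1 to 5 of that day were at 57.9, 168.9, 25.0, 14.0 and 14.1 CPM. The groups did not overlap, but the lowest EXP library was only 1.25 times the highest CTRL library. The means were 4.91 ± 4.44 CPM (n = 4, SD) and 56.0 ± 65.6 CPM (n = 5, SD), an 11.4-fold difference of means. EXP replicate 2 carried much of this mean, and without it the ratio was 5.66-fold. Both EXP libraries above 50 CPM belonged to the high side of that split. Within the high side the ratio was 23.1-fold (3 CTRL and 2 EXP libraries), and within the low side, with 1 CTRL and 3 EXP libraries, it was 3.61-fold. The role of the split in these levels was not tested. The fitted log2 fold change was 3.51, and 1.85 within the low side. Of all tested genes, 23.9% had ranges that did not overlap on day 1.

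On day 2, Fgf23 was close to the limit of detection without expansion. The 3 CTRL libraries held 3, 0 and 1 counts of it. The 3 EXP libraries held 2163, 877 and 2034 counts, or 71.4, 34.5 and 77.2 CPM. All 3 EXP libraries were thus far above all 3 CTRL libraries. The EXP mean of 61.0 ± 23.1 CPM (n = 3, SD) was at least 389-fold higher than 3 counts per CTRL library. The fitted log2 fold change, which depends on the prior count here, was 9.77. On this day 39.3% of tested genes had ranges that did not overlap.

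On day 4 the CTRL libraries held 0, 0, 1 and 15 counts of Fgf23, and the EXP libraries held 2820, 1479 and 256 counts. In CPM the EXP libraries were at 75.7, 51.4 and 9.14, and the highest CTRL library was at 0.649. The lowest EXP library was still 14.1 times that CTRL library. The EXP mean was 45.4 ± 33.7 CPM (n = 3, SD) and the CTRL mean 0.173 ± 0.318 CPM (n = 4, SD), a 263-fold difference that rested on the 15 counts of CTRL replicate 4. Without that library the remaining CTRL libraries had 1 count or fewer, and the EXP mean was at least 313-fold higher than 3 counts per library. The fitted log2 fold change over all libraries of the day was 7.98. Ranges did not overlap for 25.5% of tested genes on day 4.

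Ordered by group mean, Fgf23 was highest in day 2 EXP, then day 1 EXP and day 4 EXP, and the ranges of these 3 groups overlapped. Day 1 CTRL came next at 4.91 CPM. Its range overlapped that of day 4 EXP, and its lowest library (1.40 CPM) was above every CTRL library of days 2 and 4. Operated skin without a hydrogel therefore held Fgf23 counts of 33 to 271 per library on day 1 and of 0 to 15 on the later days. In sorted bulk samples, fewer cells carrying a transcript and less transcript per cell cannot be told apart.

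**Figure D1:**
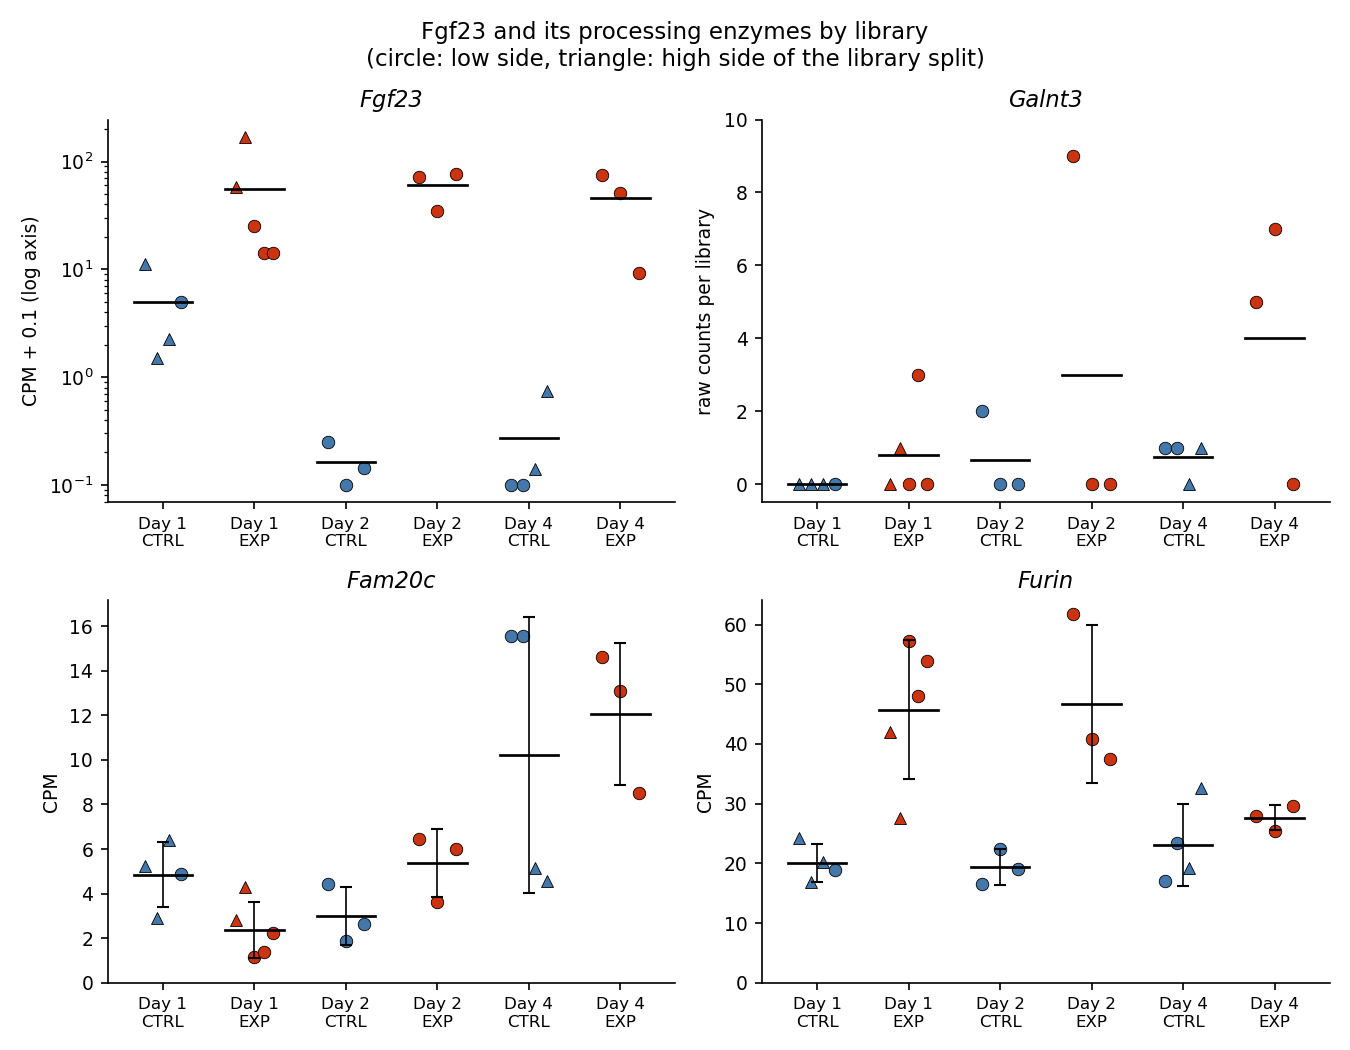
Each point is 1 library, in CTRL (blue) or EXP (red) on days 1, 2 and 4, with triangles for the high side and circles for the low side of the library split, with the group mean as a line and ± SD as bars for Fam20c and Furin. Fgf23 is on a log axis of CPM + 0.1, Galnt3 is in raw counts, and the other panels are in CPM. Fgf23 separates the arms on each day, Galnt3 does not exceed 9 counts, and Furin separates the arms on days 1 and 2.

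Bone-cell markers were examined beside Fgf23, since osteocytes are its known source. The summed level of 10 osteoblast and osteocyte markers was 6.86 to 12.0 CPM in CTRL and 39.1 to 117 CPM in EXP on day 1. It was 2.46 to 5.78 and 27.2 to 60.9 CPM on day 2, and 5.16 to 14.2 and 26.9 to 43.9 CPM on day 4. This list was therefore higher in EXP on each day without overlap, and the highest sum was in day 1 EXP replicate 2, the library with the most Fgf23. Most of it was 1 gene, Alpl, the tissue-nonspecific alkaline phosphatase, with up to 114 CPM in a library. The genes that define osteocytes stayed low. Sost reached at most 10 counts in any of the 22 libraries, Mepe 3, Phex 16 and Dmp1 24. The osteoblast genes Bglap and Sp7 reached at most 16 and 13 counts, and Ibsp 109.

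Markers of other cell types differed in direction on the later days. By group mean the adipocyte, endothelial and melanocyte sums were higher in EXP on days 2 and 4. The haematopoietic, keratinocyte, pericyte and Schwann sums were lower in EXP on those days. The haematopoietic sum was at 60.0 to 89.7 CPM in EXP against 109.2 to 162.5 CPM in CTRL on day 2. Its highest gene was Csf1r, with up to 158.2 CPM in a library, and no other gene of this list exceeded 24.92 CPM. Csf1r was not called on days 2 and 4 (edgeR adjusted p 0.0629 and 0.303), and no gene of this list was called lower then. Cd68 was called higher in EXP on day 2 (log2 fold change 1.86, adjusted p 0.0217). S100a8 was called higher on days 2 and 4 (6.47 and 6.20, adjusted p 0.0165 and 0.00907). The summed level of 5 adipocyte markers was 1.88, 116.9 and 346.7 CPM in day 4 EXP replicates 1 to 3 against at most 1.11 CPM in CTRL, and Fgf23 was lowest in the third of these EXP libraries. On day 2 the adipocyte sum ranged from 2.47 to 54.0 CPM in EXP and from 0 to 2.51 CPM in CTRL. Its highest EXP library, replicate 1, held 71.4 CPM of Fgf23. The 5 endothelial markers summed to 1.89 to 7.40 CPM in EXP against 0.199 to 0.731 CPM in CTRL on day 2, and to 22.9 to 52.9 against 4.16 to 9.48 CPM on day 4. Most of the day 4 EXP sum was 1 gene, Tek, with up to 44.86 CPM in a library. No other gene of this list exceeded 3.68 CPM in any library. Tek and Pecam1 were not called on days 2 and 4, and Cdh5 was too low to be tested. Kdr was called higher in EXP on days 2 and 4, and Emcn on day 4. On day 1 the endothelial ranges overlapped, at 0.637 to 8.24 CPM in EXP and 5.76 to 8.45 CPM in CTRL. The part of these marker lists in the Fgf23 level was not tested.

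Galnt3 (ENSMUSG00000026994), the transferase that protects intact FGF23, was nearly absent from the counts. It had 0 counts in 13 of 22 libraries and more than 3 counts in 3 of them. Those 3 were day 2 EXP replicate 1 with 9 counts and day 4 EXP replicates 1 and 2 with 5 and 7 counts. The 11 EXP libraries held 25 counts together and the 11 CTRL libraries 5. Galnt3 was too low to be tested, no fold is given, and a difference between the arms was not detectable at this depth.

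Fam20c (ENSMUSG00000025854), the kinase, was not called between the arms on any day in edgeR, and its change over days passed there within EXP alone. On day 1 it was at 5.23, 2.92, 6.41 and 4.87 CPM in CTRL and at 2.83, 4.28, 1.16, 1.40 and 2.23 CPM in EXP. EXP was lower on average, at 2.38 ± 1.25 CPM (n = 5, SD) against 4.86 ± 1.45 CPM (n = 4, SD), with overlapping ranges. The log2 fold change of -1.03 (SE 0.41) did not pass edgeR's quasi-likelihood test (adjusted p 0.0656). It did pass with DESeq2 (adjusted p 0.0376) and with limma voom (adjusted p 0.0447). It also passed in edgeR without day 1 CTRL replicate 2 or without EXP replicate 2, where the fitted values reached at most -1.35. Among high-side and among low-side libraries the values were -0.45 (edgeR adjusted p 0.623) and -1.61 (adjusted p 0.186).

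On day 2, Fam20c was at 4.43, 1.88 and 2.65 CPM in CTRL and at 6.47, 3.62 and 5.99 CPM in EXP, and the ranges overlapped. The log2 fold change was 0.84 (edgeR adjusted p 0.294, SE 0.51). On day 4 the CTRL libraries were at 15.6, 15.6, 5.16 and 4.55 CPM and the EXP libraries at 14.6, 13.1 and 8.50 CPM. The CTRL pair near 5 CPM belonged to the high side of the split and the pair near 16 CPM to the low side. The log2 fold change was 0.24 (adjusted p 0.741, SE 0.46), and -0.35 (adjusted p 0.671) among low-side libraries alone. The effect of expansion on Fam20c was not shown to differ between days (edgeR adjusted p 0.126), where 8.82% of tested genes passed.

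Within EXP, Fam20c rose over the days. The group means were 2.38 ± 1.25 (n = 5, SD), 5.36 ± 1.53 (n = 3, SD) and 12.1 ± 3.19 CPM (n = 3, SD) on days 1, 2 and 4. All 3 day 4 libraries were above all 3 day 2 libraries, while days 1 and 2 overlapped. The change over days passed in edgeR (adjusted p 0.00371), as it did for 14.3% of tested genes. In CTRL the means were 4.86, 2.99 and 10.2 CPM. The change there did not pass in edgeR (adjusted p 0.153), where 0.291% of tested genes did, but it passed with limma voom (adjusted p 0.0470).

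Furin (ENSMUSG00000030530), the protease, was higher with expansion on days 1 and 2. On day 1 it was at 24.3, 17.0, 20.2 and 18.9 CPM in CTRL and at 42.1, 27.6, 57.3, 48.1 and 53.8 CPM in EXP. The groups did not overlap, and EXP replicate 2, the library highest in Fgf23, was the lowest of the EXP libraries in Furin. The log2 fold change was 1.19 (edgeR adjusted p 4.68e-04, SE 0.22), with means of 20.1 ± 3.12 CPM (n = 4, SD) and 45.8 ± 11.7 CPM (n = 5, SD). Among low-side libraries it was 1.49 (adjusted p 0.0371), and among high-side libraries it was 0.76 and did not pass (adjusted p 0.0786). Of all tested genes 13.9% were called higher and 14.7% lower on day 1, and Furin was called while Fam20c was not.

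On day 2, Furin was at 16.5, 22.5 and 19.1 CPM in CTRL and at 61.8, 40.9 and 37.4 CPM in EXP, again without overlap. The log2 fold change was 1.27 (edgeR adjusted p 0.00373, SE 0.26), on a day when 7.72% of genes were called higher and 5.71% lower. On day 4 the CTRL libraries were at 17.0, 23.3, 19.2 and 32.6 CPM and the EXP libraries at 28.0, 25.5 and 29.5 CPM. The ranges overlapped through CTRL replicate 4, and the log2 fold change of 0.26 (adjusted p 0.454, SE 0.24) did not pass. Day 4 calls made up 12.8% of genes in the higher direction and 9.66% in the lower, and neither Furin nor Fam20c was among them.

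The Furin effect was not shown to differ between days over all 22 libraries (edgeR adjusted p 0.0971), but it did without day 1 EXP replicate 2 (adjusted p 0.0400). Within EXP, Furin means were 45.8, 46.7 and 27.7 CPM on days 1, 2 and 4. This change over days had an adjusted p of 0.0710 in edgeR, with 0.0249 without day 1 EXP replicate 2 and 0.0478 without day 4 CTRL replicate 4. In CTRL the means stayed between 19.4 and 23.0 CPM (adjusted p 0.793). Exons of Furin overlap 118 bases of a gene on the opposite strand, Gm44851, in M21, so a small part of its counts could belong there. The other members share no exon with another gene.

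Set side by side per length, the substrate and its enzymes stood in a different order in the arms. CPM were divided by the longest coding transcript in kilobases for this comparison of levels. In day 2 CTRL, Furin was at 4.47, Fam20c at 0.834, Fgf23 at 0.0357 and Galnt3 at 0.00854 CPM per kb. In day 2 EXP, Fgf23 was at 33.6, Furin at 10.8, Fam20c at 1.50 and Galnt3 at 0.0255 CPM per kb. Mean Fgf23 was thus above mean Furin in EXP and below it in CTRL, which also held for the means on day 1 (30.9 against 10.6 in EXP, 2.70 against 4.64 in CTRL) and on day 4 (25.0 against 6.39 in EXP, 0.0953 against 5.32 in CTRL). Library by library, Fgf23 was above Furin in 8 of 11 EXP libraries and in 1 of 11 CTRL libraries. The EXP exceptions were day 1 replicates 4 and 5 (7.72 against 11.1 and 7.78 against 12.4 CPM per kb) and day 4 replicate 3 (5.04 against 6.82). The CTRL exception was day 1 replicate 1 (6.16 against 5.61). Fgf23 was chosen on levels that were higher with expansion, so its change of order against Furin follows in part from that choice. The order is a description over libraries of all days, and was not tested.

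**Figure D2:**
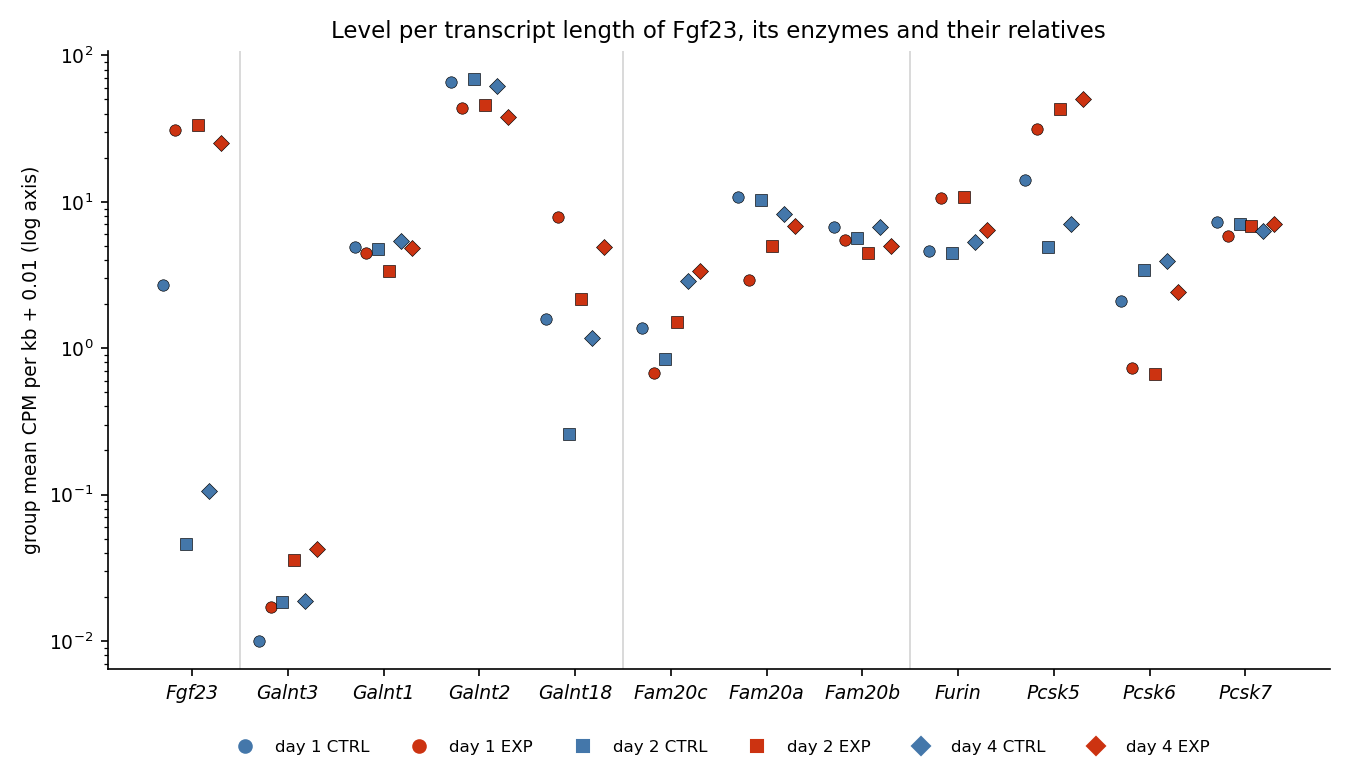
Group mean levels in CPM per kb of the longest coding transcript plus 0.01, on a log axis, for Fgf23, its 3 enzymes and relatives of each enzyme, in CTRL (blue) and EXP (red) on days 1 (circle), 2 (square) and 4 (diamond). Galnt3 is the lowest of these genes in each of the 6 groups, Galnt2 is the highest of the 4 transferases shown, and mean Pcsk5 is above mean Furin in each group.

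Across all 22 libraries the log2 CPM of Fgf23 and Furin had a Pearson r of 0.658, which includes the difference between the arms. Over the 11 EXP libraries alone r was -0.31. For Fgf23 and Fam20c r was -0.07 over 22 and 0.38 over 11 libraries, and for Furin and Fam20c it was -0.38 and -0.71. These are descriptions over libraries that share days and the library split. The 5 tested genes most like Fgf23 by Pearson r over the 22 libraries were Prg4 (0.962), Chl1 (0.940), Lgmn (0.935), Wars (0.929) and Glis3 (0.918). Prg4 encodes lubricin, a lubricating glycoprotein of joints. It was at 141 to 769 CPM in EXP libraries and at 3.92 to 145 CPM in CTRL libraries. Within EXP alone the r of these 5 genes with Fgf23 was lower, from 0.273 for Chl1 to 0.821 for Wars. Glrx (0.919), Fst (0.904) and Pdpn (0.898) were most like Furin, and Ssr3 (0.821), Gm4316 (0.817) and Pdxdc1 (0.811) most like Fam20c.

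**Figure D3:**
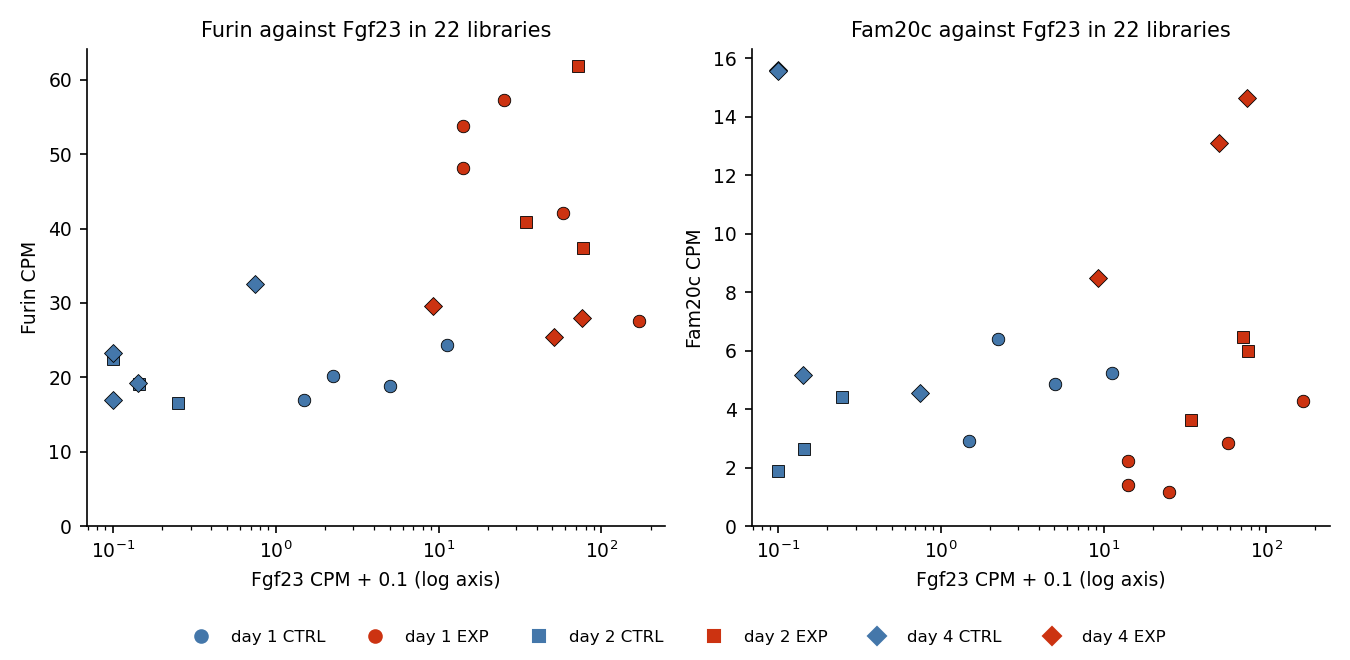
Furin (left) and Fam20c (right) in CPM against Fgf23 in CPM + 0.1 on a log axis, 1 point for each of 22 libraries, in CTRL (blue) and EXP (red), with the day as the symbol. EXP libraries of days 1 and 2 lie high in both Fgf23 and Furin, and the library with the most Fgf23, at 168.9 CPM, is at 27.6 CPM of Furin.

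Most relatives of Galnt3 had more counts than Galnt3 itself, while 4 of 18 (Galnt13, Galnt14, Galntl5 and Galntl6) had fewer over the 22 libraries. These enzymes start O-glycans by adding the first sugar to serine or threonine. Of the 18 others, 14 were tested, and 2 rose and 2 fell on day 1, which is near the share of all tested genes (13.9% higher and 14.7% lower). The same count was called on day 2 (7.72% and 5.71% of all genes), while 4 rose and 2 fell on day 4 (12.8% and 9.66%). These shares also apply to the counts of the lists that follow. The median log2 fold change of the 14 was -0.12, 0.10 and -0.48 on the 3 days, against 0.02, 0.02 and 0.03 over all tested genes. Galnt18 rose on each day. It was at 4.06 ± 3.11 CPM (n = 4, SD) in CTRL and 20.3 ± 7.07 CPM (n = 5, SD) in EXP on day 1, with log2 fold changes of 2.32 (edgeR adjusted p 0.00147, SE 0.48), 3.11 (adjusted p 0.00399, SE 0.65) and 2.07 (adjusted p 0.00944, SE 0.52) on days 1, 2 and 4. Galnt5 fell on day 1 from 4.16 ± 1.98 CPM (n = 4, SD) to 0.264 ± 0.132 CPM (n = 5, SD), a log2 fold change of -3.95 (adjusted p 2.63e-05, SE 0.52). It also fell on day 2 (-2.17, adjusted p 0.0172), and not past the test on day 4 (-0.85, adjusted p 0.252).

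Other transferases were named after their values were seen, apart from Galnt6 and Galnt11. Galnt16 rose by 1.63, 0.95 and 1.71 on days 1, 2 and 4 (log2, edgeR adjusted p 1.06e-04, 0.0381 and 4.98e-04). Galnt2, the transferase with the highest mean level per length in each group but day 4 EXP, where Galnt16 was at 38.3 and Galnt2 at 37.9 CPM per kb, fell on each day, with log2 fold changes of -0.60, -0.59 and -0.71 (adjusted p 0.00466, 0.0357 and 0.00768). Its exons share 3854 bases with a readthrough gene on the same strand, Gm20388, so its level is uncertain. Galnt6 was at 4 counts or fewer in each library outside day 4 EXP and reached 54, 265 and 12 counts there, against 0, 2, 0 and 0 in day 4 CTRL (adjusted p 0.00164). The summed adipocyte markers were at 1.88, 116.9 and 346.7 CPM in EXP replicates 1 to 3 of that day, highest in the library with the least Galnt6. Their part in the Galnt6 level was not tested. Galnt17 also rose on day 4 (1.66, adjusted p 0.00655), and Galnt11 fell then (-1.71, adjusted p 0.0147, SE 0.47). Galnt11 was at 16.2 and 23.2 CPM in the low-side CTRL libraries of day 4, at 49.8 and 42.2 CPM in the high-side ones, and at 4.86, 10.1 and 15.2 CPM in EXP, where all libraries are on the low side. With the split as a covariate its log2 fold change was -1.09 and did not pass (adjusted p 0.0561), nor did -0.96 among low-side libraries (adjusted p 0.232) or the value with limma voom (adjusted p 0.0610).

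Several of these calls were lost when 1 library was left out. Galnt11 did not pass without day 4 EXP replicate 1 or 2 (edgeR adjusted p 0.0895 and 0.0569), nor Galnt5 on day 2 without EXP replicate 1 or 3 (0.0634 and 0.0575), nor Galnt2 and Galnt17 on day 4 without EXP replicate 1 (0.0516 and 0.0521). On day 2 Galnt16 was lost without CTRL replicate 1 or 3 or EXP replicate 2 or 3 (adjusted p 0.0961 to 0.167). Galnt2 was lost on that day without CTRL replicate 1 or 3 or EXP replicate 1 or 3 (adjusted p 0.0623 to 0.167). Of 23 day 4 calls of list genes followed through the alternative fits, 16 were lost in a fit of that day's libraries alone and 9 among low-side libraries, and of 44 calls of days 1 and 2 the single-day fits lost 1.

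Among 6 tested genes that extend O-glycans, St6galnac4, a sialyltransferase, rose on day 1 (log2 fold change 0.85, edgeR adjusted p 0.0203, SE 0.27). C1galt1c1, the chaperone of the core galactosyltransferase, fell on day 1 (-0.50, adjusted p 0.0111, SE 0.14) and on day 4 (-0.46, adjusted p 0.0452, SE 0.16). No gene of the list was called on day 2. St6galnac4 was lost without day 1 CTRL replicate 3 or EXP replicate 5 (adjusted p 0.0639 and 0.0582). On library totals C1galt1c1 was called on neither day. It was also lost on day 4 without CTRL replicate 1, 2 or 3 or EXP replicate 1 or 3 (adjusted p 0.0819 to 0.245).

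**Figure D4:**
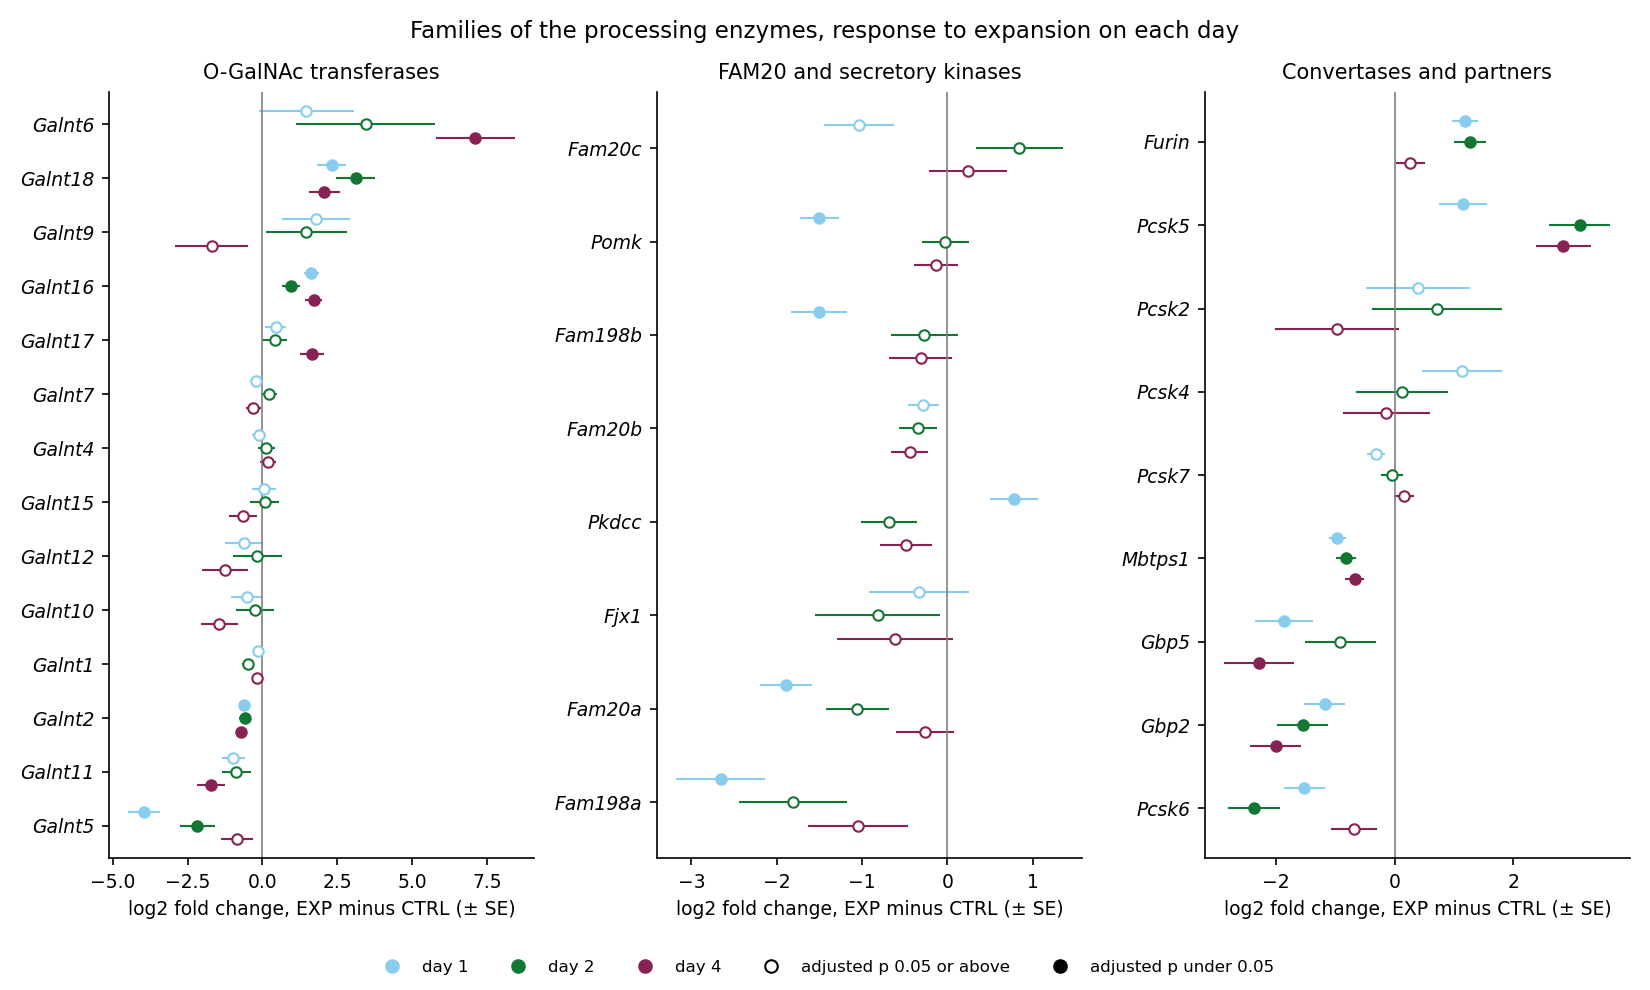
Log2 fold changes of EXP minus CTRL with SE on days 1, 2 and 4 for the tested O-GalNAc transferases, FAM20 family and other secretory kinases, and proprotein convertases with their partners. Filled points passed at an adjusted p under 0.05 and open points did not. Galnt18, Galnt16 and Pcsk5 are filled to the right on each day, and no kinase is filled on days 2 and 4.

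In the FAM20 family and other kinases of the secretory pathway, 7 genes besides Fam20c were tested. On day 1, 4 fell (Fam198a, Fam20a, Fam198b and the protein O-mannose kinase Pomk) and 1 rose (Pkdcc), and the median log2 fold change was -1.50. Fam198a fell from 32.0 ± 9.57 CPM (n = 4, SD) to 5.09 ± 3.29 CPM (n = 5, SD), a log2 fold change of -2.66 (edgeR adjusted p 9.46e-04, SE 0.52). Fam20a, a pseudokinase that works as a partner of FAM20C, fell from 27.4 ± 3.97 CPM (n = 4, SD) to 7.37 ± 2.06 CPM (n = 5, SD), with a log2 fold change of -1.89 (adjusted p 1.48e-04, SE 0.30). Fam198b and Pomk fell by 1.50 each (adjusted p 0.00180 and 8.53e-05), and they and Fam20a were named after their values were seen. Pkdcc, a secreted tyrosine kinase, rose by 0.78 (adjusted p 0.0383, SE 0.28). On days 2 and 4 no gene of the list was called, with medians of -0.68 and -0.44. The Pkdcc call was lost without day 1 EXP replicate 1 or 3 or without any 1 of the 4 CTRL libraries (adjusted p 0.0511 to 0.113).

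Among 8 tested convertases and partners of Furin, 1 rose on each day. This was Pcsk5, a convertase of the same branch as Furin. It rose by 1.16 (edgeR adjusted p 0.0377, SE 0.40), 3.12 (adjusted p 8.81e-04, SE 0.52) and 2.85 (adjusted p 6.04e-04, SE 0.46) on the log2 scale on days 1, 2 and 4. Per length it exceeded Furin, in EXP with 31.5, 42.7 and 50.3 CPM per kb on days 1, 2 and 4 against 10.6, 10.8 and 6.39 for Furin. The day 4 mean rested on EXP replicate 1, with 713.6 CPM of Pcsk5 against 263.2 and 108.5 CPM in the other EXP libraries. Without it the mean was 25.9 CPM per kb and the log2 fold change 1.89 (adjusted p 0.00586). The day 1 call of Pcsk5 was lost without CTRL replicate 1 or 2 or EXP replicate 1 or 3 (adjusted p 0.0566 to 0.113).

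Of the same list 4 genes fell on day 1 and 3 on each of days 2 and 4. Pcsk6 fell on day 2 from 14.9 ± 5.44 CPM (n = 3, SD) to 2.88 ± 0.926 CPM (n = 3, SD), a log2 fold change of -2.38 (edgeR adjusted p 0.00143, SE 0.44), and on day 1 by 1.53 on the log2 scale (adjusted p 0.00232). Mbtps1, the site-1 protease, fell on each day, with log2 fold changes of -0.97, -0.83 and -0.68 (adjusted p 4.90e-05, 0.00338 and 0.00611), and on library totals it was called on day 1 alone. Gbp2 and Gbp5, interferon-induced proteins that inhibit furin, were lower as well. Gbp2 fell by 1.19, 1.55 and 2.01 on the log2 scale on days 1, 2 and 4 (adjusted p 0.0151, 0.0222 and 0.00344). Gbp5 changed by -1.87 on day 1 and -2.29 on day 4 (adjusted p 0.00761 and 0.0105). Mbtps1 and Gbp2 were named after their values were seen. Gbp2 was lost on day 2 without CTRL replicate 1 or 2 or EXP replicate 1 or 3 (adjusted p 0.0538 to 0.103), and Gbp5 on day 4 without EXP replicate 1 or 2 (0.0566 and 0.0540). Pcsk7 did not pass on any day. The median of the 8 genes was -0.64, -0.44 and -0.69.

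The receptors that FGF23 acts through were partly present. Kl, the Klotho co-receptor, reached at most 9 counts in a library, and Klb, the co-receptor of the related hormones, at most 40 and in other groups than day 4 EXP at most 8. Fgfr1, the main FGF23 receptor in the kidney, was at 122.7 to 315.5 CPM by group mean and was not called on any day, with log2 fold changes of 0.43, 0.71 and 0.14 (SE 0.32, 0.39 and 0.36; edgeR adjusted p 0.336, 0.241 and 0.817). Of 5 tested receptors none was called on days 1 and 2, and 3 fell on day 4. Fgfr2 fell from 149.8 ± 80.3 CPM (n = 4, SD) to 24.5 ± 21.1 CPM (n = 3, SD), a log2 fold change of -2.61 (adjusted p 0.00708, SE 0.62). Low-side CTRL libraries were at 68.9 and 93.3 CPM and high-side ones at 208.7 and 228.3 CPM. Among low-side libraries alone the value was -1.72 and did not pass (adjusted p 0.0967), while with the split as a covariate it was -1.76 and passed (adjusted p 0.0120). Fgfr4 (-2.58, adjusted p 0.0260) and Fgfr3 (-1.33, adjusted p 0.0416) were named after their values were seen. In a fit of the day 4 libraries alone none of the 3 passed. Fgfr4 was lost without day 4 CTRL replicate 3 or EXP replicate 2 (adjusted p 0.0505 and 0.113), and Fgfr3 without any 1 of the 4 CTRL libraries or EXP replicate 1 or 2 (adjusted p 0.0547 to 0.166). The other endocrine FGFs showed no comparable rise. Fgf15 stayed at 11 counts or fewer in each library, and Fgf21 was at 1.14 to 1.78 CPM by group mean with log2 fold changes of -0.14, 0.07 and -0.30, none of which passed.

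Of 21 tested genes known to induce Fgf23 in bone or to receive such signals, 7 rose and 3 fell on day 1, 5 rose and 2 fell on day 2, and 5 rose and 8 fell on day 4. Lcn2, an iron-binding secreted protein of inflammation, had the largest rise on each day. It was at 2.82 ± 1.03 CPM (n = 4, SD) in CTRL and 117 ± 114 CPM (n = 5, SD) in EXP on day 1, with log2 fold changes of 5.38 (edgeR adjusted p 8.21e-04, SE 1.03), 8.08 (adjusted p 0.00203, SE 1.51) and 5.15 (adjusted p 0.00341, SE 1.07). Il1r1, the interleukin-1 receptor, rose by 1.32, 1.50 and 0.85 (adjusted p 1.90e-04, 0.00106 and 0.0160). Hif1a, a transcription factor of low oxygen and iron, rose by 0.95, 0.61 and 0.75 (adjusted p 2.06e-04, 0.0363 and 0.00577). Tfrc, the transferrin receptor, rose by 1.61, 1.10 and 0.93 (adjusted p 1.91e-04, 0.0246 and 0.0252), and Slc20a2, a phosphate transporter, by 1.37, 2.50 and 1.29 (adjusted p 0.00658, 0.00123 and 0.0231). The last 4 genes were named after their values were seen, and all 4 rose on each day. Of the falls of this list, 3, 2 and 8 on the 3 days, only those of Pth1r and Esr1 are described, in the next paragraph. The named genes therefore lean towards rises more than the list does. Tfrc was lost on day 2 without CTRL replicate 1 or 2 or EXP replicate 1 or 3 (adjusted p 0.0595 to 0.104), and on day 4 without CTRL replicate 3 or 4 or EXP replicate 1 (0.0741 to 0.133). Slc20a2 was lost on day 4 without CTRL replicate 1 or 2 or EXP replicate 1 or 3 (0.0570 to 0.0655). The medians of the list were 0.36, -0.13 and -0.27.

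Pth1r, the parathyroid hormone receptor, fell on days 1 and 4 (log2 fold changes -1.70 and -2.47, edgeR adjusted p 0.00918 and 0.00602), and Esr1, an oestrogen receptor, fell on each day (-1.64, -1.87 and -1.37, adjusted p 0.00586, 0.0216 and 0.0484). On day 1 the value of Pth1r among high-side libraries was -1.29 and did not pass (edgeR adjusted p 0.176). Among low-side libraries, with 1 CTRL library, it was -1.54. With the split as a covariate the day 1 value was -1.29 and passed (adjusted p 0.00265). On day 4 Pth1r was at 16.1 and 22.4 CPM in low-side and at 91.6 and 69.1 CPM in high-side CTRL libraries, against 6.41, 8.92 and 11.8 CPM in EXP. Its day 4 value was -1.47 with the split as a covariate (adjusted p 0.00993) and -1.09 among low-side libraries (adjusted p 0.155). The call was also lost in a fit of day 4 alone (adjusted p 0.0524) and with limma voom (adjusted p 0.0667). Among the cytokines, Il6 was at 534 to 835 CPM by group mean and was not called, while Tnf and Il1b reached at most 30 and 12 counts in a library. Esr1 was lost on day 2 without CTRL replicate 1 or EXP replicate 1 or 3 (adjusted p 0.0661 to 0.111), and Il1r1 on day 4 without CTRL replicate 3 or EXP replicate 1 (0.0519 and 0.144). The Esr1 calls of days 1 and 4 were not followed through the alternative fits. Hif1a was lost on day 2 without CTRL replicate 2 or 3 or without any 1 of the 3 EXP libraries (adjusted p 0.0600 to 0.143).

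Genes tied to bone mineral moved unevenly. Of 5 tested, 1 rose on day 1 and 2 on each of days 2 and 4, and none fell. Alpl rose from 5.37 ± 1.99 CPM (n = 4, SD) to 62.2 ± 32.4 CPM (n = 5, SD) on day 1, with log2 fold changes of 3.53, 3.76 and 1.79 on the 3 days (SE 0.49, 0.60 and 0.50; edgeR adjusted p 5.50e-05, 7.15e-04 and 0.0155). Spp1, which encodes osteopontin, did not pass on day 1 (-0.85, adjusted p 0.191). It rose on day 2 (3.66, adjusted p 0.00138, SE 0.65) and on day 4 from 9.98 ± 0.770 CPM (n = 4, SD) to 196.8 ± 124.5 CPM (n = 3, SD) (4.30, adjusted p 2.53e-04, SE 0.59). Its effect differed between days (adjusted p 8.04e-04). Runx2, the transcription factor of the bone lineage, was named after its values were seen. It rose by 3.01 and 2.18 on days 2 and 4 (adjusted p 7.15e-04 and 0.00194). Phex, whose loss raises FGF23 in bone, and Mepe, a bone matrix protein, were too low to be tested. Of the kidney targets only Cyp27b1, the enzyme that activates vitamin D, was tested. It rose from 0.170 ± 0.116 CPM (n = 4, SD) to 1.68 ± 0.706 CPM (n = 5, SD) on day 1 (log2 fold change 3.28, adjusted p 2.81e-04, SE 0.57) and by 2.98 on day 2 (adjusted p 0.00619), and did not pass on day 4 (0.92, adjusted p 0.261).

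Feedback genes of the ERK pathway, which FGF receptors switch on, were also mixed. Of 14 tested, 2 rose and 1 fell on day 1, 4 rose and 1 fell on day 2, and 1 rose and 3 fell on day 4, with medians of 0.39, 0.45 and -0.24. The day 1 count is near the share of all tested genes, 13.9% higher and 14.7% lower. Etv4, a transcription factor induced by FGF signals, rose on day 2 (3.25, edgeR adjusted p 0.00396, SE 0.68). Dusp4, an ERK phosphatase, was at 15.1 ± 7.21 CPM (n = 3, SD) in EXP against 2.46 ± 0.737 CPM (n = 3, SD) in CTRL on day 2, and rose on day 4 by 2.18 (adjusted p 0.00697, SE 0.52). Spred1 rose on day 1 (0.81, adjusted p 0.0171). Spry1, an inhibitor of the pathway, fell on each day, with log2 fold changes of -0.89, -1.11 and -1.19 (adjusted p 0.0160, 0.0288 and 0.0117), and was not called on days 1 and 2 when library totals replaced TMM scaling. Il17rd, which dampens FGF signals, fell on day 4 (-1.34, adjusted p 0.0169, SE 0.38). Spred1 was lost without day 1 CTRL or EXP replicate 3 (0.0636 and 0.0641), Il17rd without day 4 EXP replicate 1 or 2 (0.102 and 0.0887), and Spry1 on day 2 without CTRL replicate 2 or 3 or EXP replicate 1 or 3 (adjusted p 0.0931 to 0.110).

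**Figure D5:**
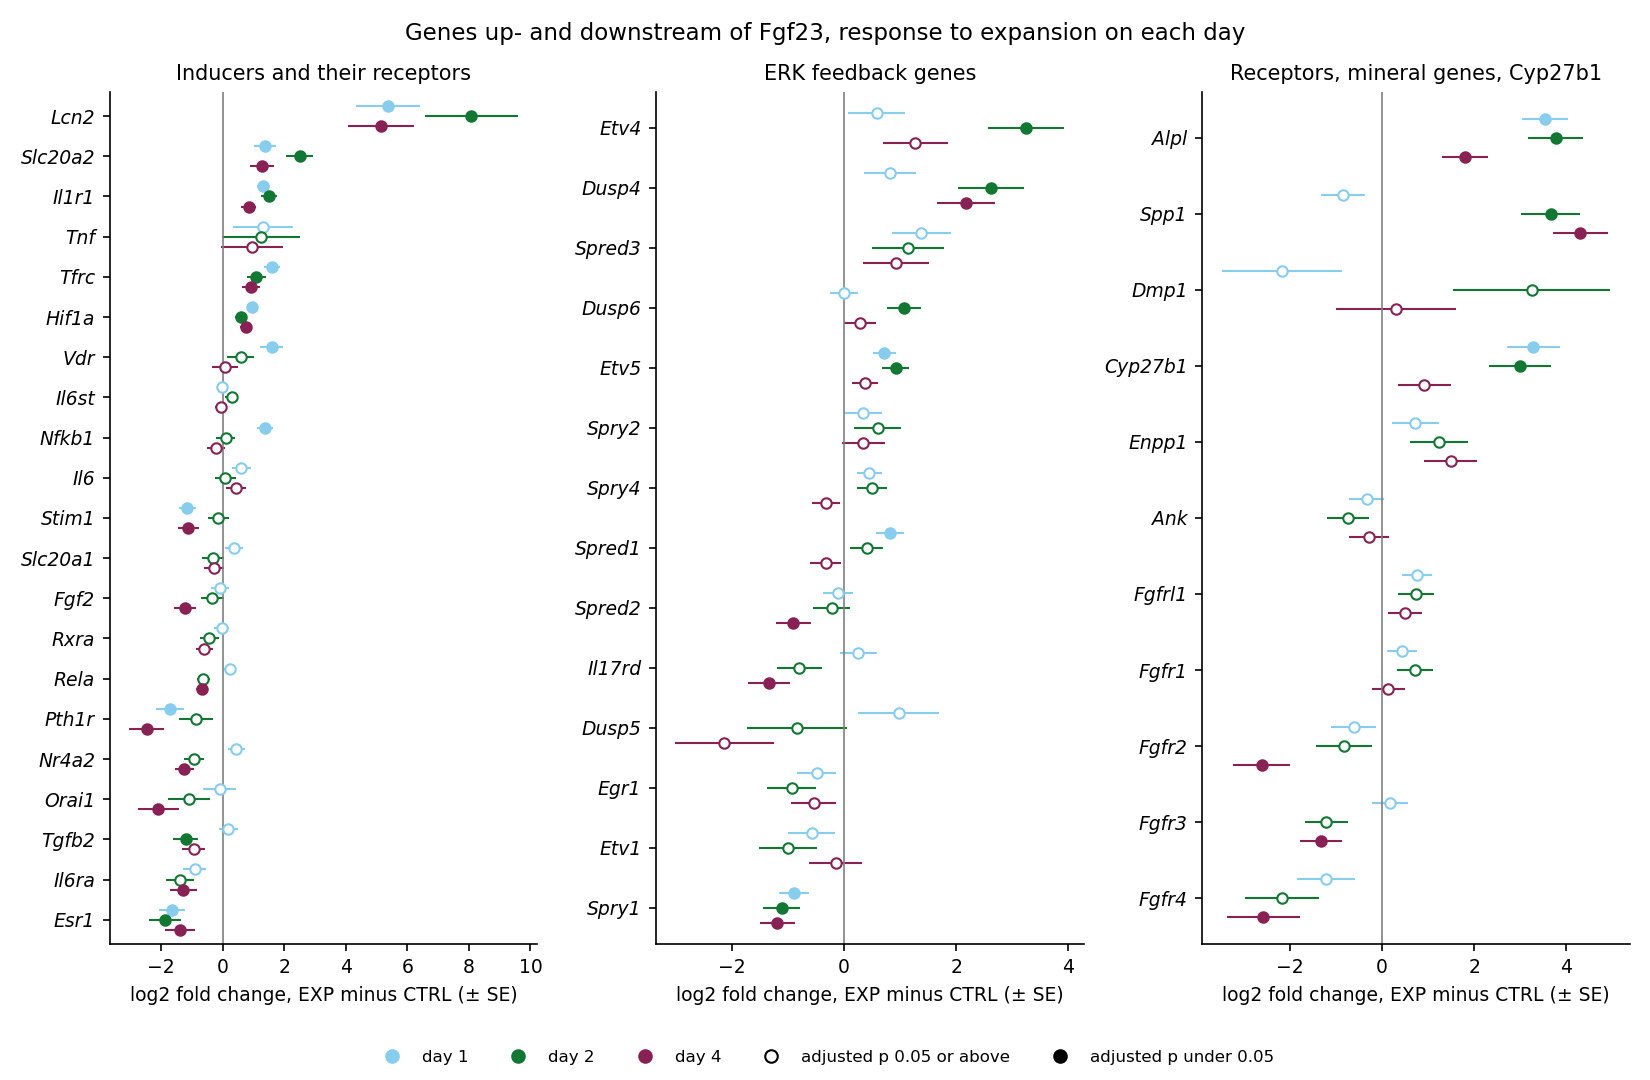
Log2 fold changes of EXP minus CTRL with SE on days 1, 2 and 4 for tested genes upstream and downstream of Fgf23, with filled points for an adjusted p under 0.05. Lcn2 and Alpl are filled to the right on each day, Spry1 is filled to the left on each day, and the 3 receptors Fgfr2, Fgfr4 and Fgfr3 are filled to the left on day 4.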

How the data were processed

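RNA-seq of sorted fibroblasts gave 22 libraries in 6 groups of day and arm, assigned from the labels. The authors deposited raw read counts per gene, 1 column per library. Per the submitters' processing notes, Trimmomatic and the build mm39 were used. The aligner, the counting tool, the annotation and strandedness are not given in the sources used here, so reads of genes that overlap on opposite strands cannot be told apart. Symbols came from GENCODE M21, which named 52081 of 55414 identifiers. Transcript lengths, exon overlaps and the coding sequence came from M21 as well, on GRCm38.

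Counts were tested with edgeR 4.0.16 in R 4.3.3. After filterByExpr on the 6 groups (minimum count 10), 17554 genes were scaled by TMM and fitted together over all libraries with the quasi-likelihood F-test (16 residual degrees of freedom). P-values were adjusted by Benjamini-Hochberg over all tested genes and called under 0.05. SEs are the log2 fold change divided by the square root of its F. Log2 CPM used a prior count of 2. DESeq2 1.42.0 and limma 3.58.1 served as alternatives, besides other scalings, no filter, single days, the library split (genes with a correlation above 0.9 to Rnf10 after group means were removed), and each library left out. The script was tested on simulated data. The members and gene lists were chosen with earlier results of these data known. Named genes were all members, Kl and Fgfr1, and per list and day the called genes with the largest rise and fall, and genes outside this rule are marked in the text. A gene of the convertase list is not reported here and enters none of that list's counts or medians. Same-numbered CTRL and EXP libraries come from different mice, and their deviations from the group means correlated at -0.066 to 0.164, so the numbers were not taken as pairs. Counts of reads without molecular identifiers are not counts of independent molecules.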

Additional observations from a re-analysis of the deposited data

Results flagged for a closer look

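Of 124 groups of 4 or 5 libraries examined for the named genes, 14 held a library set apart from the others of its group, where chance would give about 6.20 (1 in 20). Fgf23 was at 168.9 CPM in day 1 EXP replicate 2, with the others at 14.0 to 57.9 CPM, and at 0.649 CPM in day 4 CTRL replicate 4, with the others at 0.0419 CPM or less. Galnt6 was at 0.140 CPM in day 1 EXP replicate 1, with the others at 0.0365 CPM or less. Pkdcc was at 5.30 CPM in day 1 CTRL replicate 2 (others 4.67 to 4.78) and at 23.9 CPM in day 4 CTRL replicate 4 (others 10.9 to 11.8). Pcsk6 was at 29.4 CPM in day 4 CTRL replicate 2 (others 11.5 to 14.4), and Pcsk5 at 61.2 CPM in day 4 CTRL replicate 1 (others 45.5 to 48.1). Spp1 was at 54.9 CPM in day 1 CTRL replicate 3 (others 25.4 to 29.5), and Lcn2 at 4.37 CPM in day 1 CTRL replicate 1 (others 2.22 to 2.36). Esr1 was at 65.2 CPM in day 1 EXP replicate 2 (others 25.6 to 34.1), and Fgfr1 at 531.7 CPM in day 1 EXP replicate 1 (others 228.6 to 310.9). Galnt17 was at 4.07 CPM in day 4 CTRL replicate 3 (others 1.72 to 2.03). Tfrc was low in day 1 CTRL replicate 1, at 6.18 CPM (others 9.04 to 9.62), and Il1r1 in day 4 CTRL replicate 3, at 141.6 CPM (others 250.7 to 256.8).

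The effect of expansion differed between days in edgeR's joint test for 5 of the named genes. The adjusted p was 0.0254 for Galnt5, whose fitted fall was largest on day 1, 0.0140 for Pomk, called on day 1 alone, and 0.0453 for Pkdcc, which rose on day 1 and had negative values on days 2 and 4. It was 8.04e-04 for Spp1 and 0.0175 for Runx2, each raised on days 2 and 4 and not past the test on day 1.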

How the results depend on the processing

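No called result that was followed changed direction under any alternative. Fam20c on day 4, not called, went from a log2 fold change of 0.24 to -0.35 among low-side libraries. It was -0.0022 to 0.52 without 1 library, lowest without CTRL replicate 4. Splitting by library side and blocking across days were chosen after seeing the data. Day 1 calls (5017) went to 2403 within the high side of the library split, 577 within the low side and 2504 at an absolute log2 fold change of at least 1. Day 2 calls (2359) went to 4632 on library totals, 4567 with limma voom and 1568 at that fold change. They were 891 to 2177 without 1 library, and moved by over 1.5 times without CTRL replicate 1 or 2 or EXP replicate 1 or 3. Day 4 calls (3943) went to 1128 in a fit of that day alone, 1368 within the low side and 2405 at that fold change. They were 1633 to 5011 without 1 library, and moved that far without EXP replicate 1 or 2. Genes with an effect differing between days (1549) were 898 to 2572 without 1 library (day 1 CTRL replicate 3 and day 4 EXP replicates 2 and 3 moved them most). Changes over days within EXP (2502) were 1367 to 3415 (day 4 EXP replicates 1 and 2). Within CTRL (51 calls, 2490 genes at an unadjusted p under 0.05) they were 5 to 124, moved by day 1 CTRL replicates 1 to 3, all 3 day 2 CTRL libraries, day 4 CTRL replicates 2 and 3, day 1 EXP replicate 2 and day 4 EXP replicates 1 and 3. They were 163 on library totals, 29 with the library split as covariate and 602 with limma voom. With a replicate block, 401 genes differed in effect between days, and the fitted log2 fold change of Fgf23 on day 4 was 11.06. With the replicate block across days, 1432 genes changed within EXP and 19 within CTRL. The replicate block within each day changed no call of Furin or Fam20c. It lost 7 of the 67 calls of named list genes, Spred1 on day 1, Galnt2, Gbp2 and Hif1a on day 2 and Fgfr3, Tfrc and Galnt17 on day 4 (adjusted p 0.0504 to 0.144). Fam20c on day 1 was -1.05 with DESeq2 and -1.25 with limma voom, both past the threshold, and -1.35 to -0.86 without 1 library. Its change over days within CTRL passed with limma voom (adjusted p 0.0470). Furin on day 1 was 0.76 within the high side. Without 1 library its adjusted p was 0.0400 to 0.220 for an effect differing between days and 0.0249 to 0.205 for a change within EXP. Fgf23 on day 1 was 1.85 within the low side. On day 2 it was 9.26 to 11.04 without 1 library, the highest without CTRL replicate 1. On day 4 it was 13.21 within the low side and 7.39 to 11.18 without 1 library, the highest without CTRL replicate 4. Such fits against CTRL libraries near 0 depend on the prior count. Of the 5 genes most like Fgf23, 1 stayed among the 5 by Spearman's rho and 0 did within EXP alone. The 67 calls of named list genes kept their call in 516 of 609 alternative fits, with 93 lost and 0 reversed, and lost it in 74 of 500 fits without 1 library. A fit of day 4 alone lost 16 of the 23 day 4 calls among them. Some calls stated above are not among the 67 and were not followed. These are Esr1 on days 1 and 4, Pcsk6 on day 1, Spp1 on day 2, and Galnt18, Alpl and Spry1 on day 4. The calls of fibroblast, endothelial and haematopoietic markers were not followed either. Depth limits Galnt3 (9 counts or fewer) and Fgf23 in CTRL of days 2 and 4 (15 counts or fewer).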
